A study of Mus musculus with 6 samples.

Results

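The genes described here are 47 components of the Wnt pathway, measured in melanocyte stem cells sorted from the skin of K14-SCF transgenic (Tg) and wild-type (WT) mice. They comprise 10 ligands, 10 receptors and co-receptors, 7 cytoplasmic transducers, 4 nuclear factors, 4 regulators of receptor turnover, 7 secreted inhibitors and 5 target and feedback genes. A gene was taken as a member by name, through the RefSeq accession that its array probe carries, without use of its level. All 47 had a probe (62 probes together), out of 21368 genes that could be named on the array, and 44 of them entered the comparison out of 18368 genes tested.

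In K14-SCF Tg mice the keratin 14 promoter drives stem cell factor (SCF), the ligand of the receptor KIT. That promoter is active in basal keratinocytes, so the transgene acts on the sorted cells from outside. The reference mice were WT, without the transgene. All animals were male, and in both genotypes the cells were gated on green fluorescence and low side scatter; strain, age and fluorescent reporter are not stated in the labels. There were 3 samples of each genotype, each on its own 1-colour Agilent array, and the labels do not say whether replicates of a genotype were separate animals. The p-values therefore reflect the variation among these 6 samples alone, which may be technical.

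Wnt proteins are secreted lipid-modified ligands that bind Frizzled receptors together with the co-receptors LRP5 and LRP6. Binding stops a cytoplasmic complex of Axin, APC and glycogen synthase kinase 3 from marking β-catenin for destruction, and β-catenin then activates target genes with the DNA-binding factors of the TCF/LEF family. In the mouse hair follicle, Wnt signalling is known for its role in the melanocyte lineage, where it promotes differentiation of melanocyte stem cells, and the lineage regulator Mitf is a known target.

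Levels are on a log2 scale relative to the 75th percentile of each array, so that a value of 0 lies at that percentile, and values follow replicates 1, 2 and 3. A log2 fold change is K14-SCF Tg minus WT. Levels of different probes are not comparable with each other, since each probe has its own hybridisation strength. Between 43636 (78.4%, WT replicate 3) and 48520 (87.1%, Tg replicate 2) of 55681 probes were well above background, no spot was saturated, and the number of arrays limits the precision. Array pairs correlated on average at 0.928 within K14-SCF Tg, 0.911 within WT and 0.918 between the genotypes. WT replicate 1 was alone on its slide and the other 5 arrays shared a slide, so values within that slide are those without WT replicate 1.

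The labelled cell type was set beside 12 markers of the melanocyte lineage. All 12 were well above background on all 6 arrays, and their summed level, in units of the 75th percentile, was 283 to 334 in K14-SCF Tg and 295 to 382 in WT. The same held for 8 of 8 other leukocyte, 8 of 9 Schwann cell and 8 of 10 keratinocyte genes. It held for 5 of 11 hair matrix, sheath and shaft genes and 2 of 7 mast cell genes. Being well above background therefore does not by itself identify the cell type. KIT, the receptor of the transgene's product, had levels of 3.87, 4.10 and 3.44 in K14-SCF Tg and 4.35, 4.47 and 3.97 in WT (log2 fold change -0.46, SE 0.28, limma, adjusted p = 0.954). Kitl, the gene for SCF, stood at 0.37 (SE 1.31) and Krt14, a basal keratinocyte gene, at 0.14 (SE 0.89) on the same log2 scale. Whether the Kitl probe also reads the transgene's transcript was not checked. Of 8 dermal fibroblast genes, 6 were also well above background on all 6 arrays, and Dpt and Pdgfra on fewer. The summed level of the 8 genes was 8.89 to 22.3 in K14-SCF Tg, against 26.0 to 71.3 in WT. The genotypes thus did not overlap for the fibroblast sum, and 7 of its 8 genes had a negative log2 fold change, among them Col1a1 at -1.83 (SE 0.69) and Col1a2 at -1.87 (SE 0.52), neither of which passed. The sums of the other cell type lists overlapped between the genotypes. The keratinocyte sum was 134 to 144 in K14-SCF Tg and 115 to 147 in WT, with 94.4% of it from Trp63. For other leukocyte genes it was 193 to 205 and 164 to 214, with 91.6% from Itgam. Schwann cell genes summed to 70.1 to 73.0 and 52.5 to 75.2. Of 8 endothelial genes, 6 had a negative log2 fold change. In such sorted bulk samples, fewer cells of a type and less RNA per cell cannot be told apart.

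No member of the pathway passed the test for a difference between K14-SCF Tg and WT. The count was 0 of 44 members (limma, Benjamini-Hochberg adjustment over all tested probes, adjusted p from 0.665 to 1.0), where 0.00544% of all tested genes, a single gene, passed. At an unadjusted p under 0.05 there were 2 members, Dact1 with a negative and Wnt5a with a positive log2 fold change, against 5.42% of all genes (2.85% with a positive and 2.56% with a negative value). The genotypes did not overlap for 3 members, 6.82% of those tested, against 10.5% of all genes. Those were Wnt5a and Wnt11, above WT on every K14-SCF Tg array, and Dact1, below it on every one. Counted in 1 direction, 2 members lay wholly above and 1 wholly below WT, where the shares of all genes were 5.13% and 5.41%. The log2 fold change was positive for 24 members and negative for 20, and its median was 0.04, with a range from -1.41 (Fzd6) to 2.28 (Lgr5). Over all tested genes the median was -0.01 and the positive share 48.6%. With each array centred on its median the members' median was -0.04 and that of all genes -0.10. The share without overlap lay below that over all genes for the members and above it for the further pathway genes (11.6%). Neither difference was tested. Within the shared slide, Dact1 was the 1 member at an unadjusted p under 0.05.

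**Figure D1:**
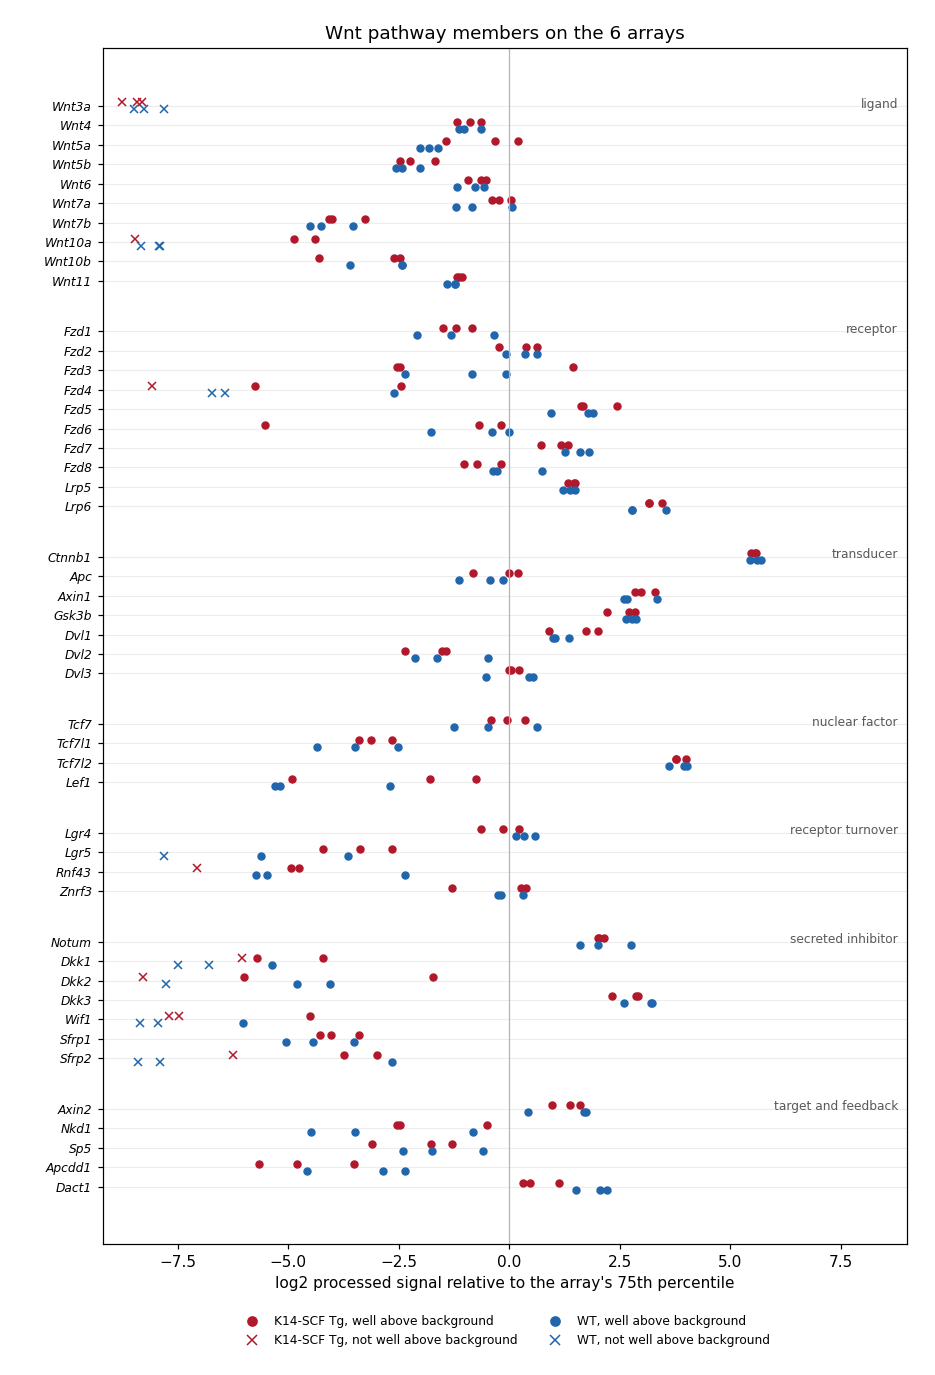
Each row is a Wnt pathway gene, grouped by role, and the x axis is the log2 processed signal relative to the array's 75th percentile; red symbols are the 3 K14-SCF Tg arrays, blue symbols the 3 WT arrays, and crosses mark values not well above background. Dact1 (0.32 to 1.12 in K14-SCF Tg, 1.52 to 2.21 in WT) and Wnt5a (-1.44 to 0.19 in K14-SCF Tg, -2.02 to -1.62 in WT) are separated by genotype, whereas most other rows overlap.

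The absence of a call did not have the same precision for every gene. For 13 members (29.5%, against 32.2% of all genes) the 95% interval of the log2 fold change lay wholly within 1 unit of 0. This leaves differences of at most 2-fold on the brightest tested probe of the gene. They were the ligands Wnt4, Wnt5b, Wnt6 and Wnt11, the receptors Fzd2, Lrp5 and Lrp6, the transducers Ctnnb1, Axin1, Gsk3b and Dvl3, the nuclear factor Tcf7l2 and the Wnt-inactivating enzyme gene Notum. A dimmer tested probe had a wider interval for Wnt4 (-2.43 to 2.86), Fzd2 (-1.86 to 3.92), Gsk3b (-2.46 to 0.71) and Tcf7l2 (-0.69 to 1.95). At the other end, 9 members varied by more than 3 log2 units among arrays of 1 genotype (Fzd3, Fzd4, Fzd6, Lef1, Lgr5, Rnf43, Dkk2, Sfrp2 and Nkd1), a spread seen in 10.3% of all genes. Their intervals were several log2 units wide.

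**Figure D2:**
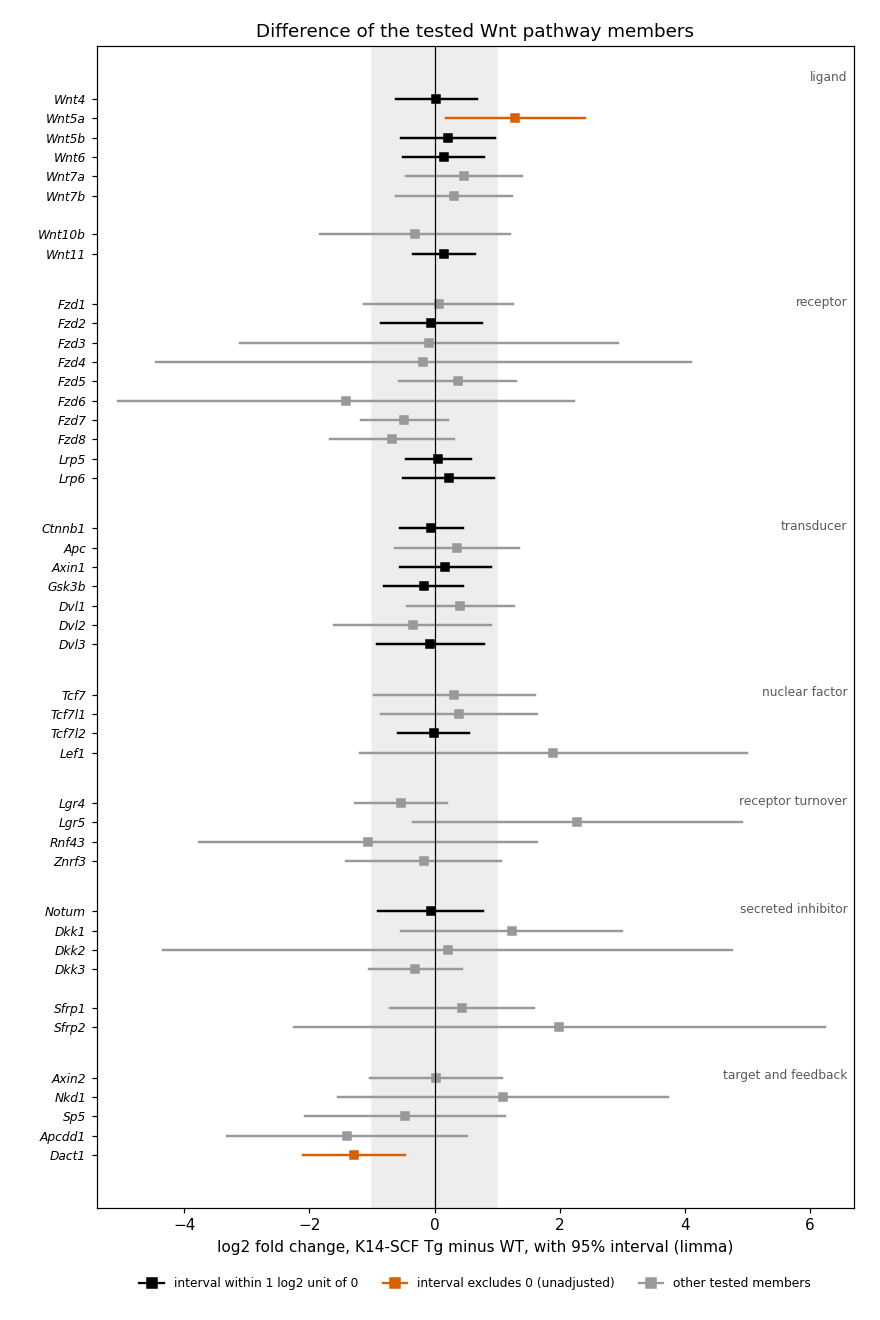
Squares give the log2 fold change (K14-SCF Tg minus WT) of each tested member and bars its 95% interval from limma; the grey band marks 1 log2 unit on either side of 0. Black bars, 13 in number, lie inside the band, the 2 orange bars (Wnt5a and Dact1) exclude 0 without adjustment, and the remaining bars are grey.

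Among the ligands, Wnt5a was the gene with the widest separation of the genotypes. Wnt5a encodes a ligand best known for signalling that does not pass through β-catenin. Its levels were -1.44, 0.19 and -0.34 in K14-SCF Tg cells, against -1.62, -1.83 and -2.02 in WT cells. All K14-SCF Tg arrays lay above all WT arrays, with replicate 1 of K14-SCF Tg close to the WT values and replicate 2 farthest from them. The means were -0.53 ± 0.83 in K14-SCF Tg and -1.82 ± 0.20 in WT (SD, n = 3 each), so that the log2 fold change was 1.29 (SE 0.45, 95% interval 0.18 to 2.40), which did not pass (limma, adjusted p = 0.868). Without K14-SCF Tg replicate 2 it was 0.93, without replicate 1 it was 1.75, and within the shared slide it was 1.40. The unadjusted p stayed under 0.05 in 10 of 18 alternative settings.

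Wnt11, a ligand of the same β-catenin-independent kind, had levels of -1.08, -1.18 and -1.14 in K14-SCF Tg, against -1.40, -1.23 and -1.22 in WT. The genotypes did not overlap, but K14-SCF Tg replicate 2 and WT replicates 2 and 3 were almost level. Its log2 fold change was 0.15 (SE 0.20), within the SE of 0, and its interval reached from -0.35 to 0.65. Wnt7a, a ligand made in the epidermis, measured -0.23, -0.39 and 0.03 in K14-SCF Tg and -0.86, -1.20 and 0.05 in WT. The highest WT array was level with the highest K14-SCF Tg array, and the log2 fold change was 0.47 (SE 0.38). Wnt7b, its close relative, measured -4.01, -3.27 and -4.09 in K14-SCF Tg and -4.26, -3.53 and -4.51 in WT. The genotypes overlapped, with replicate 2 the highest array of each, at a log2 fold change of 0.31 (SE 0.38).

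Wnt10a, a ligand known for its part in hair and tooth growth, was well above background on 2 of 3 K14-SCF Tg arrays and on 0 of 3 WT arrays. Its levels were -8.46, -4.41 and -4.87 in K14-SCF Tg, against -8.34, -7.91 and -7.94 in WT. Only K14-SCF Tg replicate 1 lay with the WT arrays. Too few arrays measured it for the test. A floor was set on each WT array by the dimmest probe that was well above background, or by this probe's own signal where higher. Against that floor the K14-SCF Tg mean was 1.14-fold higher. The K14-SCF Tg mean includes replicate 1, which was not well above background, so 1.14 is not a lower limit. The measured means were -5.91 in K14-SCF Tg and -8.06 in WT. Wnt3a, a ligand that acts through β-catenin, stayed at background in both genotypes on all 6 arrays, at -8.78 to -8.32 in K14-SCF Tg and -8.49 to -7.81 in WT. The remaining ligands Wnt4, Wnt5b, Wnt6 and Wnt10b had log2 fold changes between -0.31 (Wnt10b) and 0.22 (Wnt5b), and the median of the 8 tested ligands was 0.18, with 7 of 8 positive.

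Of the receptors and co-receptors, none of the 10 separated the genotypes, 4 had a positive and 6 a negative log2 fold change, and the median was -0.07. The co-receptor gene Lrp6 measured 3.17, 3.45 and 3.15 in K14-SCF Tg and 2.78, 3.54 and 2.78 in WT. WT replicate 2 was the highest of the 6 arrays and the other WT arrays the lowest, at a log2 fold change of 0.22 (SE 0.30). Lrp5, the other co-receptor gene, ranged from 1.32 to 1.48 in K14-SCF Tg and from 1.22 to 1.49 in WT, with a log2 fold change of 0.06 and an interval from -0.46 to 0.58.

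The Frizzled gene Fzd7 measured 1.33, 0.71 and 1.16 in K14-SCF Tg and 1.59, 1.26 and 1.81 in WT. WT lay higher except that K14-SCF Tg replicate 1 exceeded WT replicate 2, and the log2 fold change was -0.48 (SE 0.28, limma, adjusted p = 0.949). A dimmer Fzd7 probe gave 0.45 (SE 0.49), so the probes of this gene differed in sign. Fzd8 measured -1.03, -0.19 and -0.74 in K14-SCF Tg and 0.73, -0.36 and -0.27 in WT. The genotypes overlapped through K14-SCF Tg replicate 2, at a log2 fold change of -0.68 (SE 0.40). Fzd5 measured 2.43, 1.62 and 1.67 in K14-SCF Tg and 1.79, 0.94 and 1.88 in WT, at 0.37 (SE 0.38). Its arrays were interleaved, and its other probe stood at -0.21.

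Fzd1, Fzd2, Fzd3 and Fzd4 had log2 fold changes between -0.18 (Fzd4) and 0.06 (Fzd1). For Fzd6, the value of -1.41 (SE 1.48) rested on K14-SCF Tg replicate 3. That array read -5.53, while the other K14-SCF Tg arrays read -0.68 and -0.19 and the WT arrays -1.78 to -0.00. Without it the log2 fold change was 0.29. Fzd4 was well above background on 2 K14-SCF Tg arrays and 1 WT array, so its size is uncertain.

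Among the transducers 4 of 7 intervals lay inside 1 log2 unit of 0, the highest share of the member classes. The ligands came next with 4 of 8, and the share over all genes was 32.2%. The median log2 fold change of the transducers was -0.05. Ctnnb1, which encodes β-catenin, measured 5.59, 5.55 and 5.47 in K14-SCF Tg and 5.61, 5.70 and 5.46 in WT. The arrays of both genotypes were interleaved within a narrow range. Its log2 fold change was -0.05 (SE 0.21) with an interval from -0.56 to 0.46. Gsk3b, the kinase gene of the destruction complex, measured 2.22, 2.84 and 2.70 in K14-SCF Tg and 2.63, 2.87 and 2.78 in WT. The genotypes overlapped, at -0.18 (SE 0.26), and its 2 dimmer probes agreed in sign, at -0.21 and -0.87.

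Apc, the scaffold of that complex, measured -0.83, 0.20 and -0.02 in K14-SCF Tg and -0.45, -1.14 and -0.14 in WT, a log2 fold change of 0.36 (SE 0.41). The values were interleaved. Its dimmer probe had all K14-SCF Tg arrays below all WT arrays, at -0.74, -1.39 and -0.70 in K14-SCF Tg and -0.63, -0.68 and -0.01 in WT, a log2 fold change of -0.50 (SE 0.32). Dvl1, a Dishevelled gene that relays the signal from Frizzled, measured 2.01, 1.73 and 0.90 in K14-SCF Tg and 1.04, 1.36 and 1.00 in WT. K14-SCF Tg replicates 1 and 2 were the highest arrays and replicate 3 the lowest, at 0.41 (SE 0.35). Axin1, the Axin gene that is expressed broadly, stood at 0.17 (SE 0.30), and the Dishevelled genes Dvl2 and Dvl3 at -0.35 (SE 0.51) and -0.07 (SE 0.35).

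For the nuclear factors the outcome depended on the probe. Tcf7l2 measured 3.77, 3.77 and 4.0 in K14-SCF Tg and 3.61, 3.94 and 4.02 in WT. The genotypes overlapped closely, with a log2 fold change of -0.01 (SE 0.23) and an interval from -0.58 to 0.56. Lef1, the TCF/LEF factor known to act with MITF in the melanocyte lineage, measured -4.92, -0.76 and -1.81 in K14-SCF Tg and -5.30, -2.69 and -5.20 in WT. Within each genotype replicate 2 was highest and the arrays spanned more than 2 log2 units, so a log2 fold change of 1.90 had an SE of 1.26 (limma, adjusted p = 0.962). The other Lef1 probe measured -4.90, -4.84 and -3.93 in K14-SCF Tg and -4.49, -3.64 and -4.60 in WT. It overlapped between the genotypes and had the opposite sign, -0.31 (SE 0.41).

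Tcf7 encodes TCF1 and measured -0.42, 0.35 and -0.06 in K14-SCF Tg and -0.48, -1.24 and 0.63 in WT, at 0.32 (SE 0.52), with its other probe at -0.32. WT held both the highest and the lowest array. Tcf7l1, which encodes a factor known mainly as a repressor, measured -3.13, -2.66 and -3.41 in K14-SCF Tg and -3.50, -4.35 and -2.53 in WT. The genotypes overlapped again, at 0.39 (SE 0.51). The median of the 4 factors was 0.36.

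Receptor turnover is governed by R-spondin receptors, which keep Frizzled on the membrane, and by ubiquitin ligases, which remove it. Lgr5, an R-spondin receptor and Wnt target that marks stem cells of the follicle epithelium, had the highest log2 fold change among the members. It measured -3.39, -4.21 and -2.67 in K14-SCF Tg, against -5.63, -3.66 and -7.82 in WT. WT replicate 3 was not above background, and WT replicate 2 lay among the K14-SCF Tg arrays. The log2 fold change was 2.28 (SE 1.07, 95% interval -0.35 to 4.91, limma, adjusted p = 0.931). Without WT replicate 3 it was 1.22, and with normexp and quantile normalization 0.94.

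Lgr4, the broadly expressed relative, measured -0.13, -0.64 and 0.21 in K14-SCF Tg and 0.15, 0.32 and 0.58 in WT. Only K14-SCF Tg replicate 3 reached into the WT range, and the log2 fold change was -0.54 (SE 0.30, limma, adjusted p = 0.947). The ligase gene Rnf43 measured -4.93, -4.75 and -7.08 in K14-SCF Tg and -5.48, -5.72 and -2.36 in WT. WT replicate 3 stood far above the rest, so that the log2 fold change of -1.07 (SE 1.1) became 0.01 without it. Znrf3, the related ligase gene, stood at -0.17 (SE 0.51), and the class median was -0.35.

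The secreted inhibitors did not separate the genotypes either. Dkk1 encodes an antagonist that binds the co-receptors. It measured -6.06, -4.21 and -5.71 in K14-SCF Tg and -6.79, -5.38 and -7.51 in WT, where 2 K14-SCF Tg arrays and 1 WT array were well above background. The genotypes overlapped through WT replicate 2, at a log2 fold change of 1.23 (SE 0.72, limma, adjusted p = 0.949). Dkk3, a divergent member of that family, measured 2.87, 2.92 and 2.33 in K14-SCF Tg and 3.22, 3.21 and 2.60 in WT. Replicate 3 was the lowest array of each genotype, and the log2 fold change was -0.31 (SE 0.30).

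Sfrp2, a Wnt-binding decoy, measured -3.73, -3.00 and -6.24 in K14-SCF Tg and -8.39, -2.64 and -7.91 in WT. It was well above background on 2 K14-SCF Tg arrays and 1 WT array, and that WT array was the highest of all. Its log2 fold change of 1.99 had an SE of 1.73. Sfrp1, of the same family, stood at 0.43 (SE 0.47), Dkk2 at 0.21 (SE 1.85) and Notum at -0.06 (SE 0.34). Wif1, a secreted Wnt-binding protein, was well above background on 1 array of each genotype and was not tested. The median of the 6 tested inhibitors was 0.32.

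Target and feedback genes are of interest because their transcription follows β-catenin activity in many tissues. Their median log2 fold change was -0.48 with 2 of 5 positive, and of the probes that stand for these genes only that of Dact1 reached an unadjusted p under 0.05. Axin2, a widely used target that feeds back on the pathway, measured 1.37, 0.96 and 1.59 in K14-SCF Tg and 0.43, 1.69 and 1.73 in WT. WT held both the lowest and the highest array, and the log2 fold change was 0.02 (SE 0.43, 95% interval -1.03 to 1.07). Without WT replicate 1, which lay on its own slide, it was -0.40. The other Axin2 probe stood at -0.39 (SE 0.28).

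Nkd1, a Dishevelled-binding feedback inhibitor, was read in opposite directions by its probes. The brighter one measured -2.47, -0.50 and -2.55 in K14-SCF Tg and -4.48, -3.50 and -0.83 in WT, a log2 fold change of 1.09 (SE 1.07), with the genotypes overlapping. The other measured -4.03, -4.30 and -4.08 in K14-SCF Tg, against -3.55, -3.11 and -2.55 in WT. All K14-SCF Tg arrays lay below all WT arrays on that probe, at a log2 fold change of -1.06 (SE 0.32, limma, adjusted p = 0.776), and its unadjusted p was under 0.05, as was that of the dimmer Dact1 probe. Over all members, 13 had more than 1 tested probe, and the probes differed in sign for 10 of them. Among the further pathway genes described below the count was 10 of 26. The share over all genes was not counted, so 10 of 13 cannot be read as a trait of the members.

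**Figure D3:**
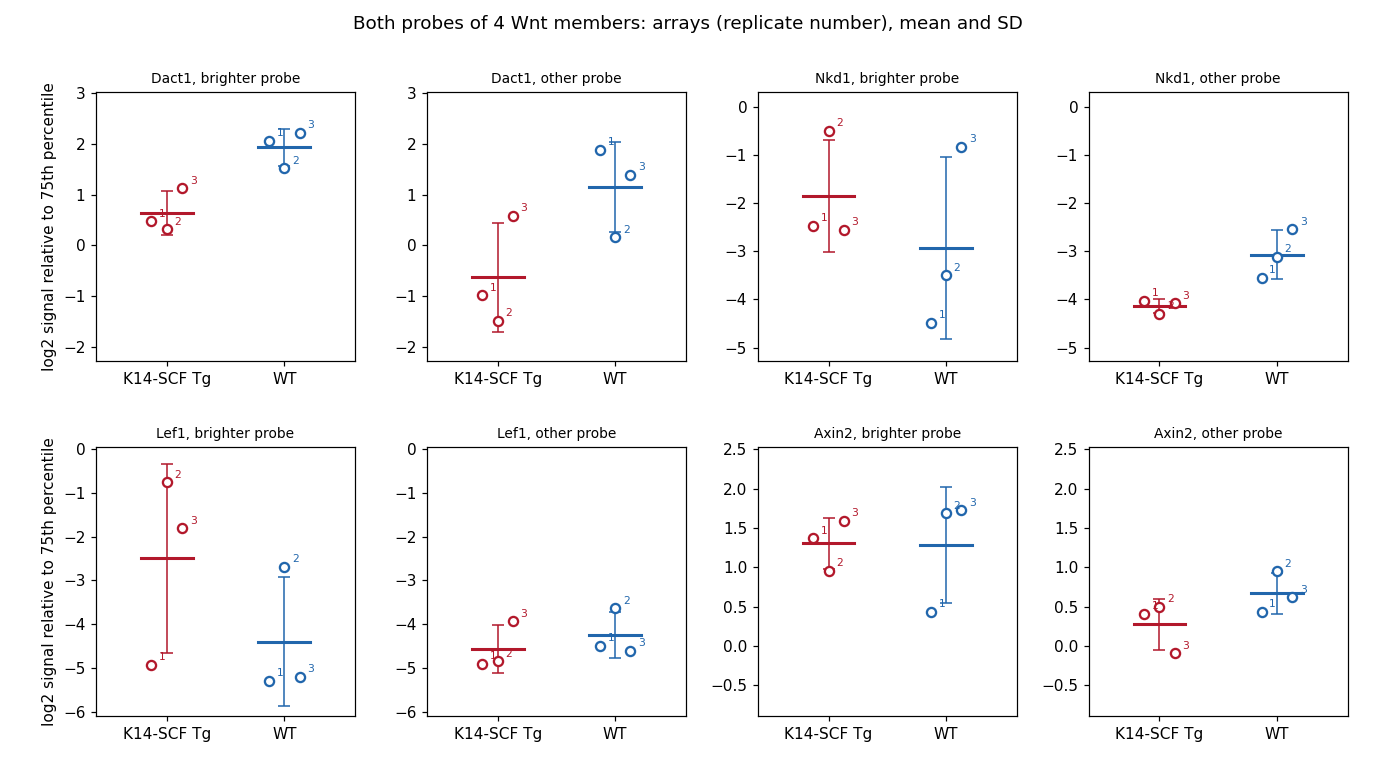
Both tested probes of Dact1, Nkd1, Lef1 and Axin2, with the log2 signal relative to the 75th percentile on the y axis; circles are arrays with their replicate numbers, thick lines genotype means and bars the SD over 3 arrays. Both Dact1 probes have the lower mean in K14-SCF Tg (log2 fold changes -1.29 and -1.77), whereas the Nkd1 and Lef1 probes differ in sign.

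Apcdd1, a membrane-bound inhibitor of the pathway, measured -3.52, -5.67 and -4.81 in K14-SCF Tg and -2.85, -2.36 and -4.58 in WT. WT replicate 3 lay within the K14-SCF Tg range and the other WT arrays above it. The log2 fold change was -1.40 (SE 0.78, limma, adjusted p = 0.946), and it was -2.06 without WT replicate 3. Sp5, a transcription factor gene and a direct target in several tissues, ranged from -3.12 to -1.30 in K14-SCF Tg and from -2.40 to -0.61 in WT, at -0.48 (SE 0.65).

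Dact1 had the smallest p of all members. It encodes a Dishevelled-binding protein that modulates Wnt signalling. Its brighter probe measured 0.47, 0.32 and 1.12 in K14-SCF Tg cells, against 2.06, 1.52 and 2.21 in WT cells. Every K14-SCF Tg array lay below every WT array. The means were 0.64 ± 0.43 in K14-SCF Tg and 1.93 ± 0.37 in WT (SD, n = 3 each), so that the log2 fold change was -1.29 (SE 0.33, 95% interval -2.11 to -0.48). This did not pass (limma, adjusted p = 0.665). Its other probe measured -0.99, -1.49 and 0.58 in K14-SCF Tg and 1.89, 0.15 and 1.39 in WT, a log2 fold change of -1.77 (SE 0.69, limma, adjusted p = 0.895). K14-SCF Tg replicate 3 overlapped WT replicate 2 there. For the brighter probe the log2 fold change within the shared slide was -1.23. Across 18 alternative settings, 1 of which averaged both probes, the value for Dact1 lay between -1.54 and -1.13. Its unadjusted p was under 0.05 in all 18, with an adjusted p from 0.564 to 0.973 (limma). The settings that changed only the variance model, filter, slide row or replicate term could not move this value.

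Dact1 and the summed level of the fibroblast genes were both lower on every K14-SCF Tg array than on every WT array. Col1a2 made up 51.7% of that sum. Of the 8 fibroblast genes 3 had genotypes that did not overlap (Col1a2, Col3a1 and Thy1), 4 overlapped with negative values (Col1a1, Lum, Dcn and Dpt), and Pdgfra overlapped at 1.27. Over all tested genes, 10.5% did not overlap in either direction and 5.41% lay wholly below WT, as Dact1 and these 3 did. Col1a2 measured 3.45, 2.12 and 2.32 in K14-SCF Tg, against 5.13, 4.66 and 3.71 in WT, and Thy1, another gene of the fibroblast list, stood at -1.69 (SE 0.34, limma, adjusted p = 0.564). Within a genotype the order differed. K14-SCF Tg replicate 3 had the highest Dact1 and the lowest fibroblast sum of its genotype, and WT replicate 3 likewise. No fibroblast gene was below background on all arrays, and the part of other cells in the Dact1 result was not tested.

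**Figure D4:**
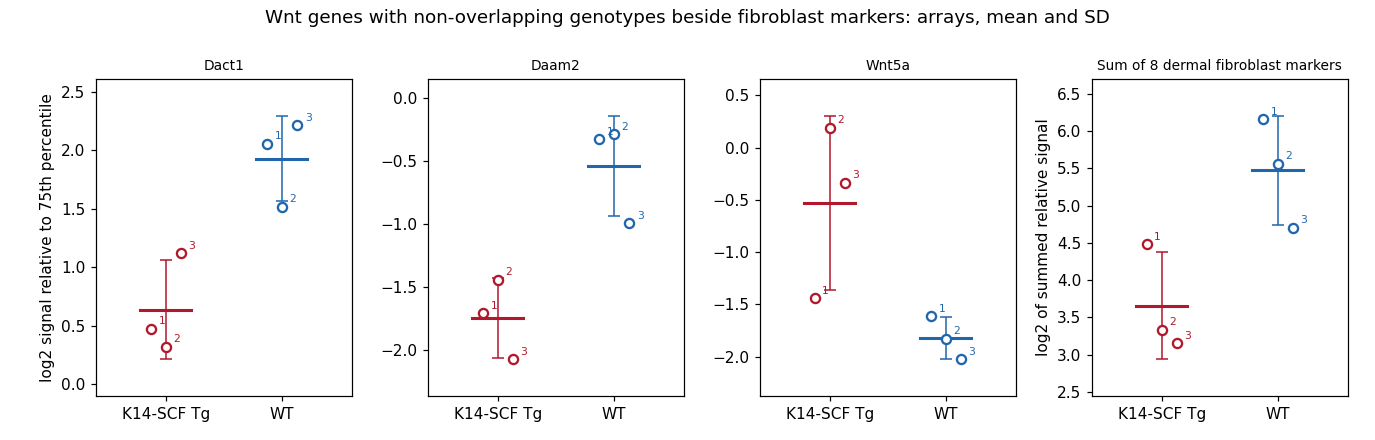
Levels of Dact1, Daam2 and Wnt5a (log2 signal relative to the 75th percentile) and log2 of the summed level of 8 dermal fibroblast markers, on each array, with genotype means (thick lines) and SD. Dact1, Daam2 and the fibroblast sum are lower on all K14-SCF Tg arrays (sum 8.89 to 22.3 before log2) than on all WT arrays (26.0 to 71.3), and Wnt5a is higher.

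To show the sequence context of 2 members of the target class, the 250 bases before the annotated start are printed for Dact1, the member with the smallest p, and for Sp5, a target whose window holds matches to the TCF/LEF motif. The sequences are from RefSeq (GRCm38.p6), both on the plus strand, and capitals mark motif matches. The windows lie at chr12:71309634-71309883 for Dact1 and chr2:70474673-70474922 for Sp5.
Dact1: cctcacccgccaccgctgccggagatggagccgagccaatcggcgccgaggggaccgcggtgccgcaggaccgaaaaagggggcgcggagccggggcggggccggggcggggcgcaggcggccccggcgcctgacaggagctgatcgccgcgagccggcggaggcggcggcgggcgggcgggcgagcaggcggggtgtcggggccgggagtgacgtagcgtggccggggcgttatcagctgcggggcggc
Sp5: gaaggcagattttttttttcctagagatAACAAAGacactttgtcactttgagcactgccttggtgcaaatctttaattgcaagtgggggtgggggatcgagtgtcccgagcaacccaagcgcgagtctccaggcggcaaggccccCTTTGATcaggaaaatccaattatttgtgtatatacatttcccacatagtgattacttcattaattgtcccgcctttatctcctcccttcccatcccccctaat
The motifs searched on both strands were CTTTGAT (in 3.21% of all windows), CTTTGAA (4.46%), CTTTGTT (5.03%) and CTTTGTA (3.2%), which share their first letters, so that no base can begin more than 1 of them on a strand. Sp5 holds CTTTGAT beginning 104 bases before the start and, on the other strand, CTTTGTT (written AACAAAG) beginning 222 bases before it. Dact1 holds none of the letters searched, and its window has a GC content of 80.4%, against 46.0% for Sp5 and a median of 52.4% over all 32851 promoter windows. A promoter window was found for 30 of the 47 members (40 windows), of which 17.5% hold at least 1 motif, against 14.8% of all windows. The members with a match were Dkk1, Fzd7, Lef1, Sp5, Tcf7l2, Wnt11 and Wnt5b.

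Beyond the 47 genes, 78 further genes of the pathway were counted by role. All 78 had a probe, 69 were tested, and 0 passed (limma, adjusted p from 0.667 to 1.0), with 2 at an unadjusted p under 0.05, both with negative log2 fold changes. The genotypes did not overlap for 8 of them (11.6%), 3 above and 5 below WT, where the share over all genes was 10.5%, and the median log2 fold change was -0.05. The 2 genes were formin relatives that act with Dishevelled in planar polarity. Daam2 measured -1.71, -1.44 and -2.08 in K14-SCF Tg, against -0.33, -0.29 and -1.0 in WT, a log2 fold change of -1.21 (SE 0.31, limma, adjusted p = 0.667). Daam1 measured 0.99, 1.1 and 1.16 in K14-SCF Tg, against 1.48, 1.68 and 1.68 in WT, at -0.53 (SE 0.21). In both, all K14-SCF Tg arrays lay below all WT arrays, as did the fibroblast sum, whose part was not tested. Of the 10 planar polarity genes 7 were negative, and Celsr3, an atypical cadherin gene of the group, stood at 0.92 (SE 0.51).

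The ligand export genes Wls and Porcn, both needed to make active Wnt proteins, stood at -0.45 (SE 0.29) and -1.13 (SE 0.67). Among 7 further tested ligands Wnt8b stood at 1.98 (SE 0.82, limma, adjusted p = 0.917). Of the R-spondins, Rspo1 was at -0.90 (SE 0.52) and Rspo3 at 0.29 (SE 0.35), and Rspo2 stayed at background on all 6 arrays. Among the further destruction complex genes Csnk1g1, a casein kinase gene, was at 0.74 (SE 0.30) and Tnks, a tankyrase gene that promotes Axin turnover, at -0.57 (SE 0.29). Further target genes included Ccnd1, the gene for cyclin D1, at -0.97 (SE 1.19), and Mitf at -0.17 (SE 0.32). Of the 11 tested none separated the genotypes, where 10.5% of all genes did. An interval within 1 log2 unit of 0 was seen for 9 of these 11, against 32.2% of all genes.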

How the data were processed

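RNA of sorted melanocyte stem cells from 3 K14-SCF Tg and 3 WT samples was amplified, labelled with 1 dye and read on Agilent arrays. The deposited scanner files, made by the authors with Agilent Feature Extraction 10.7.1.1 per the submitters' processing notes, hold intensity values, and per the file headers the processed signal is background-subtracted and detrended and the design refers to mm9. The flags per spot (other values, 0 or 1) were taken as deposited. The authors' deposited value table holds a linear ratio, the processed signal divided by 1 constant per array (100% of values within 0.001), with column medians of 0.184, 0.188 and 0.176 in K14-SCF Tg and 0.170, 0.177 and 0.169 in WT. The rule behind the constant is not stated there. On every array the constant (1405 to 1678) lay close to the 75th percentile used here (1411 to 1687), so both scalings were nearly the same.

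Processed signals were put on a log2 scale, and each array's 75th percentile over 55681 non-control probes was subtracted. Replicate spots were averaged without 632 outlier spots. The 47709 probes well above background on 3 or more of 6 arrays were compared in R 4.3.3 with limma 3.58.1 (lmFit, then eBayes, 2-sided, genotype as the single term), and p-values were adjusted over all of them by Benjamini-Hochberg. The steps were tested on simulated data. Amplification of RNA from few cells and short probes can raise the spread of dim genes. Genes were named through RefSeq accessions (assembly GRCm38.p6, used for names and promoter windows only, not for the files' coordinates), 28331 of 29786 matching; 23492 tested probes stayed unnamed. Where several probes of a gene were tested, the one with the highest mean stands for it.

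Members, lists and tests were chosen with earlier results of these data known, so no list has a test of its own. Values on all arrays were given for members past an unadjusted p under 0.05 or without overlap, the 3 smallest p per role, and Ctnnb1, Lrp6, Lef1, Tcf7l2, Axin2, Lgr5 and Apcdd1, and a few others where 1 array decided the value. Of each further list at most 3 genes, those with the smallest p, were named. Alternatives covered normalization, background correction, the deposited table, filters, probe choice, variance model, slide, slide row, replicate number and left-out arrays.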

Additional observations from a re-analysis of the deposited data

How the results depend on the processing

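No member and no gene of the further pathway lists passed in any of 18 alternative settings (limma, 786 member values, smallest adjusted p 0.564). Of these values 67, in 24 members, had the other sign. The variance model, slide row and replicate settings could not move a log2 fold change, so their values could not change sign. With 3 arrays per genotype, differences of less than several fold in dim genes could not be resolved. With the slide as a block, which equals leaving out WT replicate 1, 1 member stayed at an unadjusted p under 0.05 (Dact1) and the median of the secreted inhibitors was 0.90. With normexp and quantile normalization, run on median spot signals because the files hold no means, 1 member had genotypes that did not overlap. Median centring moved the median of all genes to -0.10 and that of the members to -0.04.

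Leaving out 1 array gave 1 (without K14-SCF Tg replicate 2 or WT replicate 1) to 4 (without K14-SCF Tg replicate 1, WT replicate 2 or WT replicate 3) members at an unadjusted p under 0.05 and 5 (without K14-SCF Tg replicate 2 or 3) to 12 (without WT replicate 3) without overlap, which fewer arrays make more frequent by construction. Class medians then ranged from 0.10 to 0.27 for ligands, -0.31 to 0.25 for receptors, -0.056 to 0.12 for transducers, -0.0097 to 0.84 for nuclear factors, -0.46 to -0.10 for receptor turnover, 0.078 to 1.02 for secreted inhibitors and -0.88 to -0.12 for targets, and from 0.00 to 0.14 for all members. The arrays numbered 3 were the only 2 in the second slide row, and 9 members (4 higher, 5 lower) had both of them outside the range of the other 4 arrays. That count was made for members only, so it cannot be read against a share over all genes. Without both, 19 members did not overlap, which fewer arrays again make more frequent by construction. The share of all genes without overlap was counted with all 6 arrays only. The median over members was 0.19 without both. Those of receptors, transducers, nuclear factors, receptor turnover and targets were 0.16, 0.28, 0.93, 0.11 and -0.033. The cause of these shifts was not tested. Slide row and replicate number 3 cannot be told apart, and with slide row as a covariate the same number of members, 2, had an unadjusted p under 0.05.

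Both genotypes carry replicate numbers 1 to 3. Deviations of same-numbered arrays from their genotype means correlated at 0.02, 0.05 and 0.13, so the numbers were not taken as pairs. With the replicate block, 0 members passed and 2 had an unadjusted p under 0.05, Dact1 and Dkk1 (limma with the block, Dkk1 at 1.23, adjusted p = 0.732), while Wnt5a no longer did. The block is balanced over the genotypes, so it could not change a log2 fold change or a median.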
